A study of Arabidopsis thaliana with 6 samples.

Results

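The rule listed 5 loci of Arabidopsis thaliana that encode small secreted lipid transfer proteins, all on chromosome 5. They were AT5G55450 with its neighbours AT5G55410 and AT5G55460, and DIR1 (AT5G48485) with its neighbour AT5G48490. Of these 5 loci, 2 had a probe set assigned to a single gene, AT5G55450 and AT5G48490, out of 13286 genes with such a probe set. AT5G55410, AT5G55460 and DIR1 are not analysed here. The measured pair was chosen by the ka120 minus WT difference itself, AT5G55450 as a gene much higher in ka120 and AT5G48490 as a gene much lower, so their differences are given below as a description and without a test.

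Plant non-specific lipid transfer proteins are short proteins with a signal peptide and a set of conserved cysteines whose disulfide bridges hold a pocket for fatty acyl chains. DIR1, named for a mutant defective in induced resistance, is needed for systemic acquired resistance, the state in which leaves far from an infection become more resistant. It moves through the phloem and acts with the related proline-rich protein AZI1 and with the metabolites azelaic acid and glycerol-3-phosphate. AT5G48490 is known as DIR1-like, the closest relative of DIR1 in this plant.

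RNA from above-ground tissue was hybridized to 3-prime expression arrays, with 1 array for each of 3 biological replicates of the ka120 mutant and of its wild type, Col-0 (WT). KA120 is a nuclear transport receptor of the importin-beta family, and the labels do not name the allele. They call the replicates biological without saying whether plants were pooled or grown apart, so p-values measure only the spread between these arrays. Both genotypes grew untreated on soil at 22 degrees C with 12 h of light and 12 h of dark. The study design gives whole rosettes at 3 weeks, whereas the sample labels give mature leaf and a growth time of 4 weeks. Levels are log2 values, 1 per probe set, and a difference is always the ka120 mean minus the WT mean on that scale.

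Array medians lay between 4.63 and 4.79. Of 22746 probe sets, 35.9% were called, that is, passed an adjusted p of 0.05 in the limma fit over all of them. Among the 13286 genes 32.9% were called, 17.5% as higher and 15.4% as lower in ka120. The leaf enzyme RCA, which activates Rubisco, was bright on every array, at between 12.94 and 13.20. The hybridization controls, which are added in fixed amounts, were lower in ka120 by 0.04 for the brightest (Cre) and by 0.44 for the dimmest (BioB), so the direction of a small difference here depends on the scaling.

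The probe set of AT5G55450 stood at 5.63, 4.97 and 4.33 in the WT replicates, against 8.33, 8.21 and 8.44 in those of ka120. The groups did not overlap, and the lowest ka120 array lay 2.58 above the highest WT array. Its mean log2 level was 8.33 ± 0.12 in ka120 against 4.98 ± 0.65 in WT, with the SD over 3 arrays per genotype. The ka120 minus WT difference was 3.35 (SE 0.25, 95% interval 2.81 to 3.89). SEs and intervals are those of limma, which draws the variance of each probe set towards that of the others. For a gene as variable as this one they are narrower than its own arrays alone would give. The WT mean stood at percentile 54.2 of all probe sets and was not shown to exceed background, so no fold is given.

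The spread of AT5G55450 lay almost wholly in the WT arrays, which ranged over 1.29, against 0.23 in ka120. Its residual SD of 0.46 was at percentile 99.9 of all probe sets. WT replicate 1 was the highest and WT replicate 3 the lowest of the WT arrays, so the size of the difference depended on which WT array was counted. It was 3.03 without WT replicate 3 and 3.67 without WT replicate 1.

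AT5G48490, the DIR1-like gene, ran the other way. Its levels were 10.93, 10.92 and 11.04 in the WT replicates, against 8.32, 8.08 and 8.51 in those of ka120. Every ka120 array lay at least 2.41 below every WT array. Its mean log2 level was 10.97 ± 0.07 in WT against 8.30 ± 0.22 in ka120 (SD over 3 arrays), a difference of -2.66 (SE 0.12, 95% interval -2.92 to -2.41). Both means were bright, at percentiles 99.1 and 91.4 of all probe sets, and the difference corresponds to a level 6.33-fold lower in ka120 (95% interval 5.31 to 7.55). The spread was larger in ka120 than in WT, with ranges of 0.43 and 0.13.

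**Figure D1:**
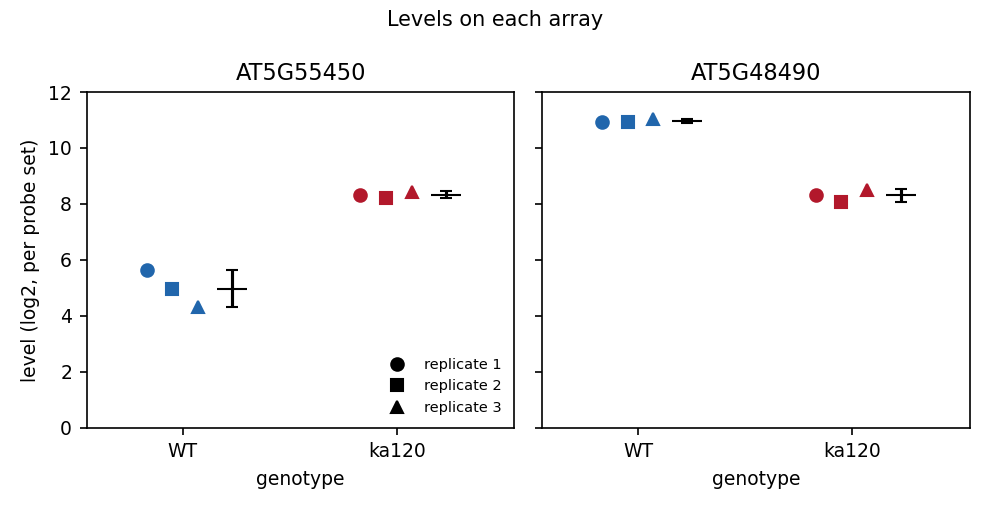
Levels (log2, vertical axis) of AT5G55450 and AT5G48490 on each of the 3 WT arrays (blue) and 3 ka120 arrays (red), with the mean and SD beside the points (black). AT5G55450 was higher and AT5G48490 lower on all ka120 arrays, and the WT arrays of AT5G55450 ranged from 4.33 to 5.63.

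Both genes were called in the fit over all probe sets, 1 higher and 1 lower. Since this contrast chose them, nothing is read from that count beside the 32.9% of genes called, nor from the gap between groups, since 43.6% of all genes had groups that did not overlap. AT5G55450 was the 10th largest rise among genes whose groups did not overlap. The next inside was AT1G43910, with a difference of 3.46, and the first outside was AT1G13470, with 3.31. AT5G48490 was the 5th largest fall. The last inside the 10 largest falls was AT5G66740, with a difference of -2.45, and the first outside was AT4G02850, with -2.43. Over all probe sets, including those with no gene named, AT5G55450 ranked 46th among rises and AT5G48490 11th among falls. Of all probe sets, 0.22% had a larger absolute difference than AT5G55450, and 0.466% a larger one than AT5G48490.

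A whole-tissue measurement cannot tell fewer cells of a type from less RNA per cell, and this holds for both genes. Of 47 listed marker genes of leaf cell types and other organs 8 were measured, with 0 of 7 for epidermis and cuticle, 0 of 7 for phloem and vasculature and 0 of 8 for flower and seed. The summed level of the 2 measured mesophyll markers was between 13.43 and 13.58 in ka120 and between 13.65 and 13.77 in WT. LHCB4.1, an antenna protein of photosystem II, fell by 0.39 (limma adjusted p = 0.00669). That call did not hold once arrays were centred on their hybridization controls (-0.17, adjusted p = 0.272). Nor did it hold once a control offset that depends on level was removed (-0.28, adjusted p = 0.0583). The 3 measured genes listed as guard cell markers were FMA, SPCH and AT1G33440, and whether their sum follows guard cells was not tested. Their summed level was between 5.79 and 5.98 in ka120 and between 5.95 and 6.14 in WT. Of these AT1G33440 fell by 0.30 (adjusted p = 0.0399), a call lost without any 1 array other than WT replicate 2.

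TRY, a repressor of trichome fate and the 1 measured trichome marker of 5, was at 4.47, 4.41 and 4.28 in ka120 and at 5.26, 5.69 and 5.42 in WT, so it fell by 1.07 (limma adjusted p = 4.2e-05). The summed level of the 2 of 5 measured root markers was between 7.87 and 8.44 in ka120 and between 6.69 and 7.83 in WT. It was carried by PYK10, a beta-glucosidase of endoplasmic reticulum bodies, which rose by 0.98 (adjusted p = 0.011), a call lost without ka120 replicate 3 (0.82, adjusted p = 0.0540). Of the 8 measured markers 4 were called, TRY, LHCB4.1, AT1G33440 and PYK10, beside 32.9% of all genes. With so few markers nothing is read from that count, and their part in the results on the lipid transfer proteins was not tested.

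Neighbouring genes were compared next, since AT5G55450 and AT5G48490 each lie beside a lipid transfer protein gene of similar kind. Between AT5G55410 and AT5G55460, both included, the gene order held 6 protein-coding or measured genes, of which 2 had a value: AT5G55450 and AT5G55420, annotated as a transcribed pseudogene. AT5G55420 was at 3.06, 3.26 and 3.08 in ka120 and at 3.18, 3.02 and 3.11 in WT, a difference of 0.03 (95% interval -0.18 to 0.24). The groups overlapped, and the level was low on every array.

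Of the 7 measured neighbours around AT5G55450, AT5G55420 included, 2 rose, 1 fell and 4 did not pass, beside 32.9% of all genes called. Genes without a value were skipped, so AT5G55520, AT5G55530 and AT5G55550 lie 8, 9 and 11 genes beyond AT5G55460. AT5G55520 rose by 0.57 (limma adjusted p = 0.0218) and AT5G55530 by 0.33 (adjusted p = 0.0149), whereas AT5G55380, of a membrane-bound O-acyltransferase family, fell by 0.42 (adjusted p = 0.0137). The differences of AT5G55370, the actin-bundling fimbrin AT5G55400 and AT5G55550 were -0.11, 0.13 and -0.07, but AT5G55400 passed as higher under either control-based scaling (0.35, adjusted p = 0.0233, and 0.57, adjusted p = 0.00036). Removal of the level-dependent offset also made AT5G55420 (0.47), AT5G55370 (0.33) and AT5G55550 (0.37) pass as higher. That offset was interpolated by level between the controls. Below the dimmest control, BioB, it was held at the BioB value, so for these dimmer genes it is extrapolated. Each of the 3 calls was lost without at least 1 array: AT5G55520 without ka120 replicate 1 (0.43, adjusted p = 0.0993), ka120 replicate 3 (0.60, 0.0520) or WT replicate 2 (0.41, 0.0883), AT5G55530 without ka120 replicate 1 (0.33, 0.0540) and also by median centring (0.21, 0.0918), and AT5G55380 without ka120 replicate 1 (-0.40, 0.0523), ka120 replicate 3 (-0.33, 0.0663) or WT replicate 2 (-0.39, 0.0517), and on hybridization controls (-0.20, 0.221). The 7 differences lay between -0.42 and 0.57.

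On the other side, 1 of the 6 measured neighbours of the DIR1 pair rose and 0 fell, beside 17.5% and 15.4% of all genes. AT5G48540, a cysteine-rich repeat secretory protein 6 genes beyond AT5G48490, rose by 0.91 (SE 0.11, limma adjusted p = 6.66e-05). It was at 7.91, 7.95 and 7.85 in ka120 and at 7.06, 7.14 and 6.77 in WT. Of the nearest neighbours of AT5G48490 with a value, AT5G48480, whose annotated extent takes in DIR1 on the same stretch of chromosome, gave 0.10 (95% interval -0.14 to 0.33), and AT5G48500, which follows AT5G48490, gave 0.02 (95% interval -0.18 to 0.21). With the level-dependent control offset removed both passed as higher, AT5G48480 at 0.53 (adjusted p = 0.000836) and AT5G48500 at 0.45 (adjusted p = 0.00292). AT5G48430, AT5G48460 and AT5G48530 gave -0.19, -0.22 and -0.10 without passing, although AT5G48430 passed as lower by median centring (-0.31, adjusted p = 0.0154) and AT5G48530 as higher under removal of that offset (0.34, adjusted p = 0.0218).

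**Figure D2:**
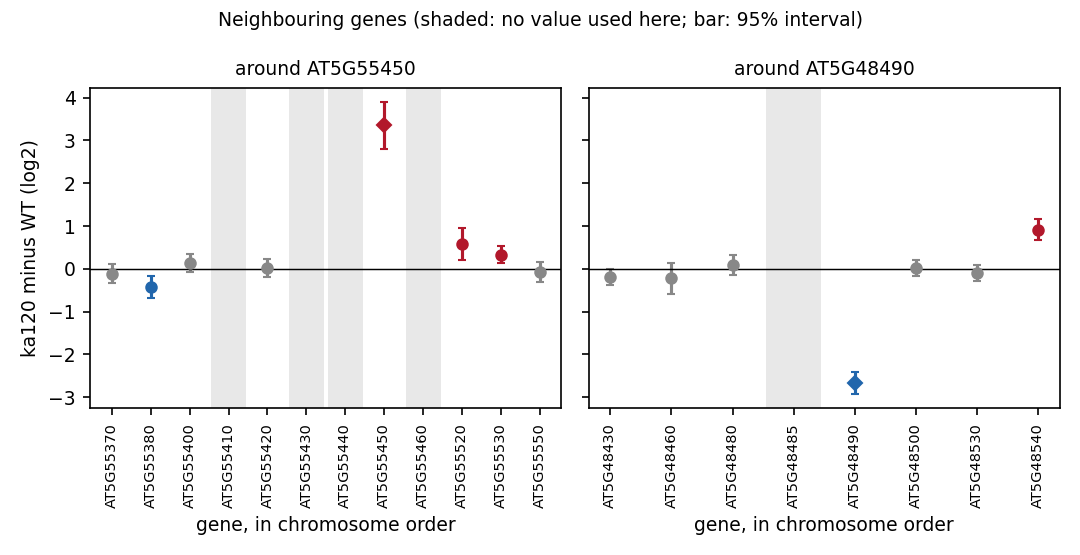
Difference between ka120 and WT (log2, with the 95% interval of the fit) for measured genes in chromosome order around AT5G55450 (left) and AT5G48490 (right). Diamonds are the chosen genes, red and blue mark genes called higher and lower, grey points were not called, and shaded columns hold no value used here. Unmeasured genes outside the listed loci are left out, so columns side by side need not be adjacent genes. The chosen genes stand at 3.35 and -2.66, and their 13 neighbours lie between -0.42 and 0.91.

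The other lipid transfer proteins place the pair within its wider family. Of 102 listed genes of that family, other than the 5 loci, 45 were measured. In ka120 5 of them rose, 5 fell and 35 did not pass, so 22.2% were called, against 32.9% of all genes. The median difference was -0.06, against -0.03 over all genes, and the differences ran from -1.98 to 2.12. How many members rose or fell depended on the scaling: median centring gave 4 rising and 11 falling genes, centring on the hybridization controls 14 and 3, and removal of a level-dependent control offset 30 and 3. Most of the family was dimmer than BioB (means 7.28 in ka120 and 7.72 in WT), where that offset is a constant carried down from BioB. Those 30 calls therefore rest on an extrapolation. Most of the measured family was dim. Of the 12 genes whose mean over all arrays was above the median over all probe sets 58.3% were called, against 55.0% of all genes in that class, and of the 33 dimmer ones 9.09% were called, against 14.9%.

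Among the secreted type I proteins, the classical lipid transfer proteins of the epidermis and cuticle, 4 of 15 were measured and 1 rose, beside 17.5% of all genes. This was AT5G01870, at 4.84, 5.44 and 5.45 in ka120 and at 3.75, 3.57 and 4.20 in WT. The groups did not overlap, and the rise was 1.40 (SE 0.19, limma adjusted p = 0.000162). Its size is uncertain, since the WT mean, at percentile 38.9 of all probe sets, was not shown to exceed background. Among the type II and other secreted proteins 2 of 16 measured members rose, AT3G18280 by 0.56 (adjusted p = 0.00599) and AT3G53980 by 0.39 (adjusted p = 0.0166), and 0 fell, 12.5% called beside 32.9% of all genes. The AT3G53980 call was lost under median centring (0.26, adjusted p = 0.0801), under quantile normalization (0.27, 0.0864) and without ka120 replicate 1 (0.38, 0.0538), ka120 replicate 3 (0.35, 0.0665) or WT replicate 3 (0.28, 0.0526).

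Of 14 measured proteins held at the cell surface by a glycosylphosphatidylinositol anchor 1 rose, 2 fell and 11 did not pass, 21.4% called beside 32.9% of all genes. AT2G44300 rose by 0.59 (limma adjusted p = 0.00338). AT2G27130 was at 5.48, 5.13 and 5.25 in ka120 and at 6.50, 6.59 and 6.38 in WT, so it fell by 1.20 (SE 0.11, adjusted p = 1.05e-05). AT4G22640, at percentiles 14.4 and 26.4 of all probe sets in ka120 and WT and not shown to exceed background, fell by 0.36 (adjusted p = 0.0359). That call was lost without ka120 replicate 1 (-0.23, adjusted p = 0.155), WT replicate 1 (-0.31, 0.0959) or WT replicate 2 (-0.38, 0.0716), with a replicate block (-0.36, 0.0540) and on hybridization controls (-0.14, 0.420).

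The hybrid proline-rich proteins, the group of AZI1, in which a proline-rich stretch precedes the lipid transfer domain, included AT4G12490 and AT1G62510, at the ends of the range of the 45 family genes. Of 11 measured members 1 rose, 3 fell and 7 did not pass, 36.4% called beside 32.9% of all genes. AT4G12490, a close relative of AZI1, was at 5.69, 5.76 and 5.02 in ka120 and at 3.26, 3.60 and 3.25 in WT. It rose by 2.12 (SE 0.18, limma adjusted p = 5.95e-06), with no overlap between the groups. Its WT mean, at percentile 28.0 of all probe sets, was not shown to exceed background, so the size of this rise is uncertain. AT1G62510 was at 5.95, 5.26 and 5.99 in ka120 and at 7.56, 7.98 and 7.61 in WT, so it fell by 1.98 (SE 0.19, adjusted p = 1.24e-05). AT2G10940 and AT2G45180, both bright, fell by 0.80 (adjusted p = 9.56e-05) and 0.49 (adjusted p = 0.00354), the latter a call lost on hybridization controls (-0.27, adjusted p = 0.0830). AZI1 itself is not analysed here.

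**Figure D3:**
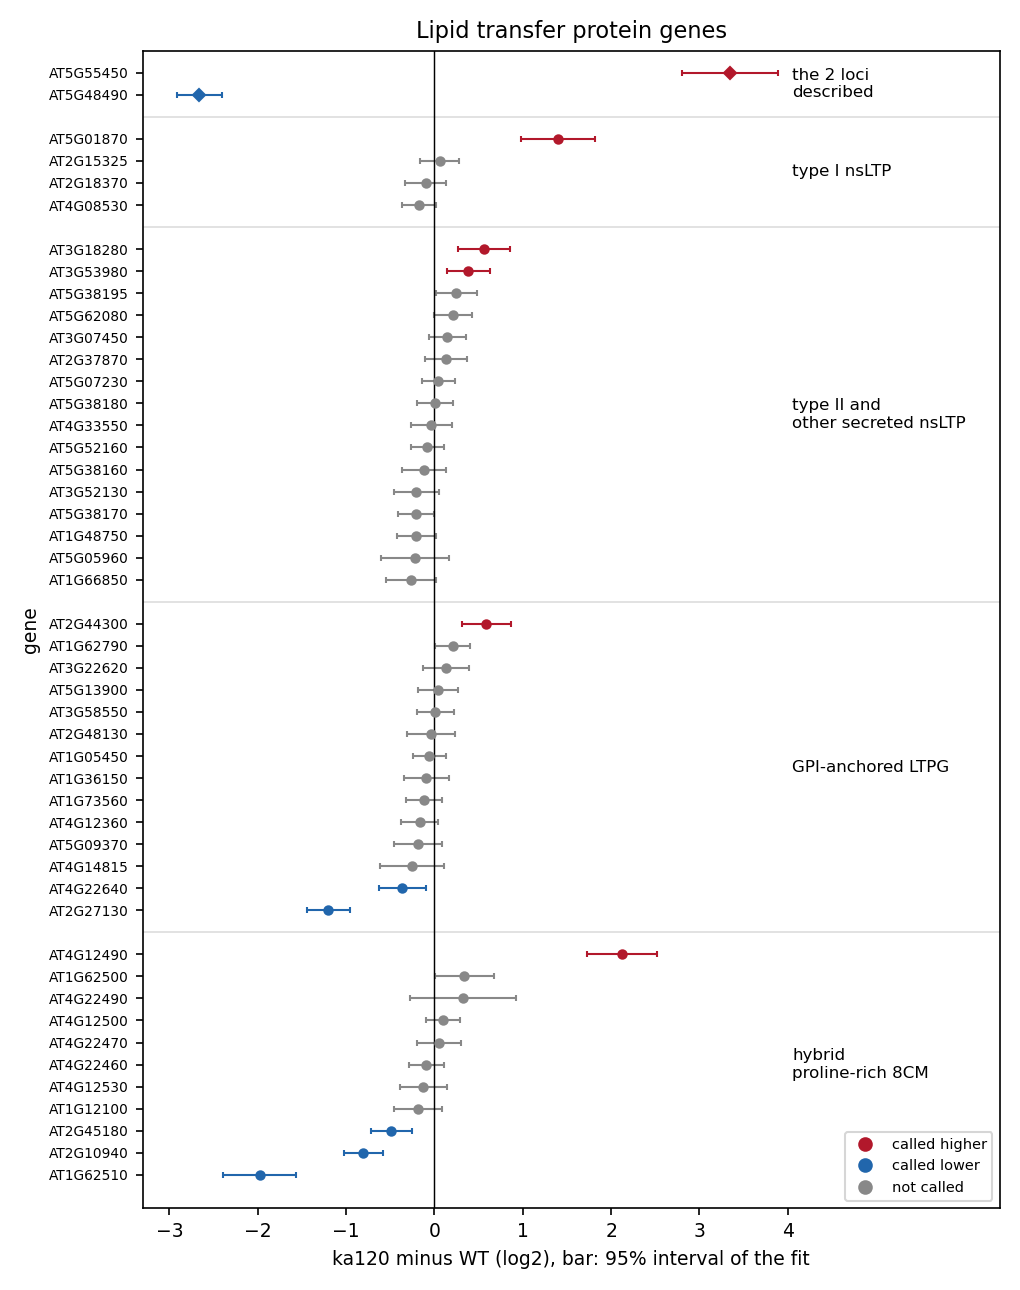
Difference between ka120 and WT (log2, with the 95% interval of the fit) for AT5G55450 and AT5G48490 (diamonds) and the 45 other measured lipid transfer protein genes, by class. Red and blue mark genes called higher (5 others) and lower (5 others), and grey marks the 35 not called. The others range from -1.98 to 2.12, and the pair was chosen for its large differences, 3.35 and -2.66.

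Genes of systemic acquired resistance, the process in which DIR1 acts, were thinly covered, with 5 of 34 listed genes measured. Of these 3 rose and 0 fell, 60.0% called beside 32.9% of all genes. AT5G03350, a legume lectin-like protein that acts in systemic resistance, was at 11.74, 11.61 and 11.72 in ka120 and at 9.52, 8.66 and 8.15 in WT. It rose by 2.91 (SE 0.26, limma adjusted p = 8.69e-06), and its WT arrays stood in the same order as those of AT5G55450, with replicate 1 highest and replicate 3 lowest. That order is common: WT replicate 1 was the highest WT array in 39.4% of all genes and in 56.7% of genes that rose by at least 2. Nothing is read from the likeness. SAG101, a partner of the immune regulator EDS1, was at 4.87, 5.11 and 5.15 in ka120 against 3.59, 3.35 and 3.34 in WT, a rise of 1.62 (adjusted p = 1.26e-06). The WT mean of SAG101, at percentile 29.7 of all probe sets, was not shown to exceed background, so the size of its rise is uncertain. AT5G52810, known as SARD4, which makes pipecolic acid, was at 6.18, 6.10 and 6.42 against 5.16, 4.84 and 4.89, a rise of 1.27 (adjusted p = 1.18e-05). BSMT1, which makes methyl salicylate, and UGT76B1, which glycosylates immune signals, overlapped between the groups with differences of -0.07 and 0.35. UGT76B1 passed under either control-based scaling (0.57 and 0.78), and BSMT1 under removal of the level-dependent offset (0.37).

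The genes whose pattern over the 6 arrays was most like that of each chosen gene were found by the Euclidean distance between levels, each taken relative to the WT mean of its own probe set, over 13285 genes. The measure holds both the genotype difference and the scatter within each genotype. For AT5G55450 the nearest were AT1G10340, an ankyrin repeat membrane protein, at a distance of 0.479, the receptor-like kinase AT5G59670 at 0.703 and AT5G52760, with a heavy metal domain, at 0.712. Their differences were 3.49, 3.65 and 3.62, and in each of them WT replicate 1 was the highest and replicate 3 the lowest of the WT arrays, as in AT5G55450.

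For AT5G48490 the nearest were AT1G73600, a phosphoethanolamine methyltransferase of phosphatidylcholine synthesis, at a distance of 0.330, AT5G66740 at 0.448, and NOL (AT5G04900), a chlorophyll b reductase, at 0.497. AT1G73600 was at 7.85, 7.68 and 7.71 in ka120 and at 10.26, 10.33 and 10.45 in WT, a difference of -2.60. AT5G66740 and NOL differed by -2.45 and -2.41. As in AT5G48490, ka120 replicate 2 gave the lowest level of the 3 ka120 arrays for all 3 of these genes. All 6 nearest genes were picked by their distance over these same arrays, which takes in the genotype difference and the order of arrays within a genotype. The shared differences and array orders thus follow from the choice, and these values are a description.

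**Figure D4:**
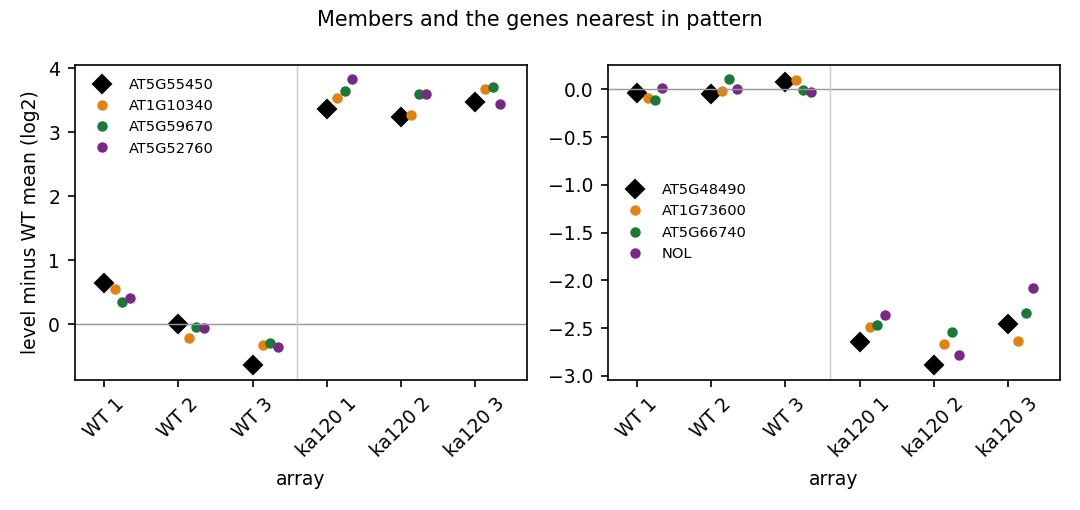
Level on each array minus the WT mean of the same probe set (log2) for AT5G55450 (left) and AT5G48490 (right), shown as black diamonds, with the 3 genes nearest to each in pattern as coloured points. In the left panel WT 1 is the highest WT array for all 4 genes, and in the right panel ka120 2 is the lowest array for all 4. The coloured genes were chosen for their likeness over these arrays.

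Over the 15 alternative settings the difference was between 3.03 and 3.79 for AT5G55450 and between -2.79 and -2.43 for AT5G48490, a description of how far the scaling and single arrays move values that this contrast chose. The replicate block, the intensity-dependent prior, the filter on dim probe sets and averaged probe sets could not move either difference. They add nothing to these ranges. The ends came from different settings. The smallest value of AT5G55450 came without WT replicate 3, and the largest with the level-dependent control offset removed, which also gave the smallest fall of AT5G48490.

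**Figure D5:**
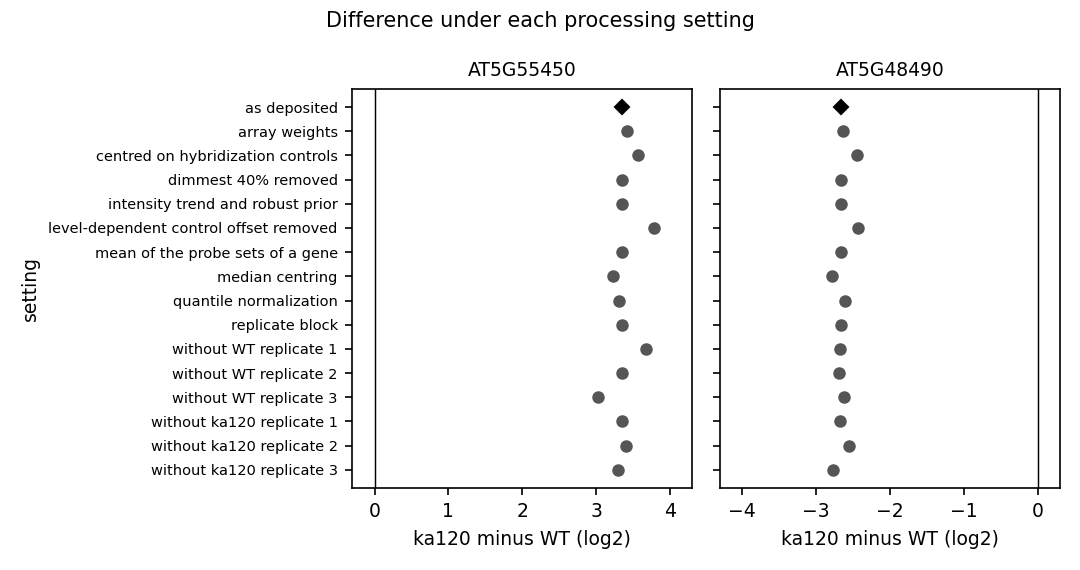
Difference between ka120 and WT (log2, horizontal axes) for AT5G55450 (left) and AT5G48490 (right) with the deposited values (diamond) and under each of 15 alternative settings (points). All values of AT5G55450 lie between 3.03 and 3.79 and all of AT5G48490 between -2.79 and -2.43.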

How the data were processed

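The authors deposited log2 levels, 1 per probe set and array, as the range of the values shows. Per the submitters' processing notes the tool was affy. How it corrected background, normalized arrays and summarised probes was not given in the sources used here, nor was a version. The table held 22810 probe sets, and 64 array controls were left out. The array's annotation gave 1 gene for 13513 probe sets, several for 503 and none for 8730. Of the 13513, 13436 matched the TAIR10.1 gene table, for 13286 genes, and the brightest probe set stood for a gene that had several.

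The linear model held genotype only and was fitted by lmFit and eBayes of limma 3.58.1 under R 4.3.3, and p-values were adjusted over all 22746 probe sets by the Benjamini-Hochberg method. The fit was also run on simulated data with independent noise and SDs shuffled over probe sets. Those data hold no shared array effect or scaling shift, so they are no check on the calls here. The number of arrays limits the precision. No detection calls were used, so dim levels may be background. Family and marker lists came from general knowledge, and members, lists and tests were chosen with earlier results of these data known. Named genes were the listed loci, the 3 largest called differences per list, all measured genes of the resistance list, the measured neighbours and the 3 nearest patterns of each locus. AT2G45180, RCA, FMA and SPCH were named after their values were seen. Alternatives were quantile normalization, median centring, 2 scalings on hybridization controls, leaving out the 40% of probe sets with the lowest means, a prior variance that follows intensity, array weights, a replicate block, averaged probe sets and each array left out. The labels state no pairs, so the replicate numbers were not taken as such. Deviations of same-numbered arrays had correlations of -0.01, -0.19 and 0.13, and those of differently numbered arrays ran from -0.28 to 0.26. With 3 centred arrays per genotype these values are tied to each other and cannot decide on pairing.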

Additional observations from a re-analysis of the deposited data

How the results depend on the processing

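Of the 10 called lipid transfer protein genes other than the chosen pair, 7 kept their direction and stayed past the threshold in all 15 alternatives: AT5G01870, AT3G18280, AT2G44300, AT4G12490, AT2G27130, AT1G62510 and AT2G10940. Counts over all probe sets moved with the scaling, since the median difference, -0.02 in the deposited values, became -0.15 by median centring, 0.20 by control centring and 0.41 without the level-dependent offset. Median centring gave 6235 lower calls against 3760 and 11 lower family calls. On hybridization controls 7657 probe sets were higher and 1964 lower, and in the family 14 and 3. Without the level-dependent offset 16847 were called (15489 as higher, 1358 as lower), with 30 and 3 in the family and 5 higher resistance genes. Most probe sets are dimmer than BioB, and for them this offset was extrapolated as a constant. Its removal also reversed AT1G33440 (0.14), AT4G22640 (0.076), AT5G48460 (0.21) and AT5G55380 (0.018). Centring on controls and the offset reversed BSMT1 (0.15 and 0.37), AT5G48430 (0.033 and 0.25), AT5G48530 (0.12 and 0.34), AT5G55370 (0.11 and 0.33) and AT5G55550 (0.15 and 0.37), and centring alone reversed RCA (0.13). Median centring reversed AT5G48480 (-0.028, and -0.0036 by quantile normalization), AT5G48500 (-0.11) and AT5G55420 (-0.095). With 1 array left out at a time, the difference ranged from -0.23 to 0.10 for BSMT1, from -0.029 to 0.051 for AT5G48500, from -0.034 to 0.068 for AT5G55420 and from -0.15 to 0.0029 for AT5G55550, none of which passed the test as deposited. The cause of other changes was not tested. A replicate block gave 7868 calls, and of the named genes 1 call was lost, AT4G22640. The differences of AT5G55450 and AT5G48490 stayed at 3.35 and -2.66, which a block cannot change in this balanced design. Averaging the probe sets of a gene changed 0 calls of the named genes, but each of them had 1 probe set. That setting therefore could not move their differences and is no check on them.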

Other observations

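AT5G55450 was highest in WT replicate 1 among the WT arrays. Among the 67 genes, itself included, called higher with a difference of at least 2 on the log2 scale, WT replicate 1 was the highest WT array in 38 (56.7%), replicate 2 in 14 and replicate 3 in 15. Over all 13286 genes replicate 1 was the highest in 39.4%. The median WT SD of the 67 genes was 0.198, against 0.121 over all genes, and 0.65 for AT5G55450. The genes share their arrays and are not independent, so no test was made.

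AT5G48490 was lowest in ka120 replicate 2 among the ka120 arrays. Of the 29 genes, itself included, called lower by at least 2 on the log2 scale, ka120 replicate 2 was the lowest ka120 array in 17 (58.6%), against 33.6% of all genes. The median ka120 SD of the 29 genes was 0.172, against 0.103 over all genes, and 0.22 for AT5G48490. Their median WT SD was also larger, 0.135 against 0.121. These genes too were picked by the contrast that chose AT5G48490, were not matched for level and share their arrays. The values are a description, and no test was made.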
